A study of Mus musculus with 2 samples.

Results

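Alpha-beta T cells are lymphocytes whose antigen receptor pairs an alpha with a beta chain, and 244 barcodes of them were found among 12756 barcodes of single-cell RNA sequencing of mouse duodenal crypts. A barcode stands for 1 captured cell, and each count is a unique molecular identifier (UMI), a molecule of RNA counted once. A barcode was kept when it had at least 500 genes detected and at most 25% of its UMIs in mitochondrial genes, which left 7784 barcodes. A kept barcode was a lymphocyte when Ptprc, Cd3d, Cd3e and Cd3g together had at least 2 UMIs and Epcam, an epithelial adhesion gene, had at most 1. A lymphocyte was a member when Trbc1 and Trbc2, the constant regions of the beta chain, together had more UMIs than Trdc and Trgc1, the constant regions of the delta chain and of 1 gamma chain. The members were thus chosen by UMIs of Ptprc, the Cd3 genes, Epcam and the receptor constant regions, and values of these genes are given as a description only.

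The study compared crypts of wild-type mice in groups labelled ES and NT, abbreviations that the labels do not spell out, and each group was a pool of 5 animals captured as 1 library. Strain, age, sex and the treatment behind ES are not stated in the labels. The deposited matrix marks the libraries by barcode suffix 2 and 1 with no label tying a suffix to ES or NT, so they are called library 2 and library 1 and no direction between ES and NT is drawn. With 1 library a group there was no replicate, no test was run, and every interval given is a 95% interval that covers counting error only. In a pool, fewer cells of a type and a difference in capture cannot be told apart.

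Library 2 held 151 members and library 1 held 93. They made up 71.9% (65.3 to 77.9) of the 210 lymphocyte barcodes of library 2 and 39.4% (33.1 to 46.0) of the 236 of library 1, by the exact Clopper-Pearson method. Of all kept barcodes they were 4.05% (3.44 to 4.73) in library 2 and 2.29% (1.85 to 2.80) in library 1. Gamma-delta lymphocytes, which had more Trdc and Trgc1 UMIs than Trbc1 and Trbc2 UMIs, numbered 38 in library 2 and 139 in library 1, and ties, which entered neither class, numbered 21 in library 2 and 4 in library 1. Lymphocytes as a whole were 5.63% (4.92 to 6.42) of kept barcodes in library 2 and 5.82% (5.12 to 6.58) in library 1, so their share was alike and their division between the receptor classes was not. A member had a median of 3057 UMIs in library 2 and 2340 in library 1, against 13036 in epithelial barcodes of library 2 and 12508 in those of library 1, an epithelial barcode having at least 2 Epcam UMIs. The members' UMIs summed to 525642 in library 2 and 245597 in library 1, so a level in library 2 rests on more molecules.

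T cells read antigen through a receptor bound to the CD3 chains and start signalling through the kinase Lck. The coreceptors CD4 and CD8 bind MHC class II and class I molecules. CD8 on conventional cytotoxic T cells is a pair of the chains Cd8a and Cd8b1, whereas many lymphocytes lodged between gut epithelial cells carry a pair of Cd8a chains with no Cd8b1. In the gut such intraepithelial lymphocytes hold granzymes ready, sit in the epithelium through the integrin Itgae, and include alpha-beta and gamma-delta cells. Those with paired Cd8a chains are known for natural killer adaptors such as Fcer1g and Tyrobp and for the interleukin-15 receptor chain Il2rb, while Cd8b1 and Cd4 cells arise from conventional T cells after they meet antigen.

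Members had a median of 8 Trbc1 and Trbc2 UMIs in library 2 (range 1 to 28) and 7 in library 1 (1 to 36), which the rule sets in part. Gamma-delta barcodes also held beta chain transcripts, with a median of 4 UMIs in library 2 and 4 in library 1. Members with no Trdc and no Trgc1 UMI numbered 125 of 151 in library 2 and 51 of 93 in library 1, and those with a Trgc1 UMI made up 16.6% in library 2 and 44.1% in library 1. The plot of receptor UMIs per barcode shows both sets of chains. Just inside the threshold, by 1 UMI, were 12 members of library 2 and 8 of library 1, and just outside it 3 barcodes of library 2 and 9 of library 1. The members just inside had a median of 1 beta chain and 0 delta and gamma chain UMIs in library 2, and 2.5 and 1.5 in library 1. The barcodes just outside had medians of 1 beta chain and 2 delta and gamma chain UMIs in library 2, and 2 and 3 in library 1.

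**Figure D1:**
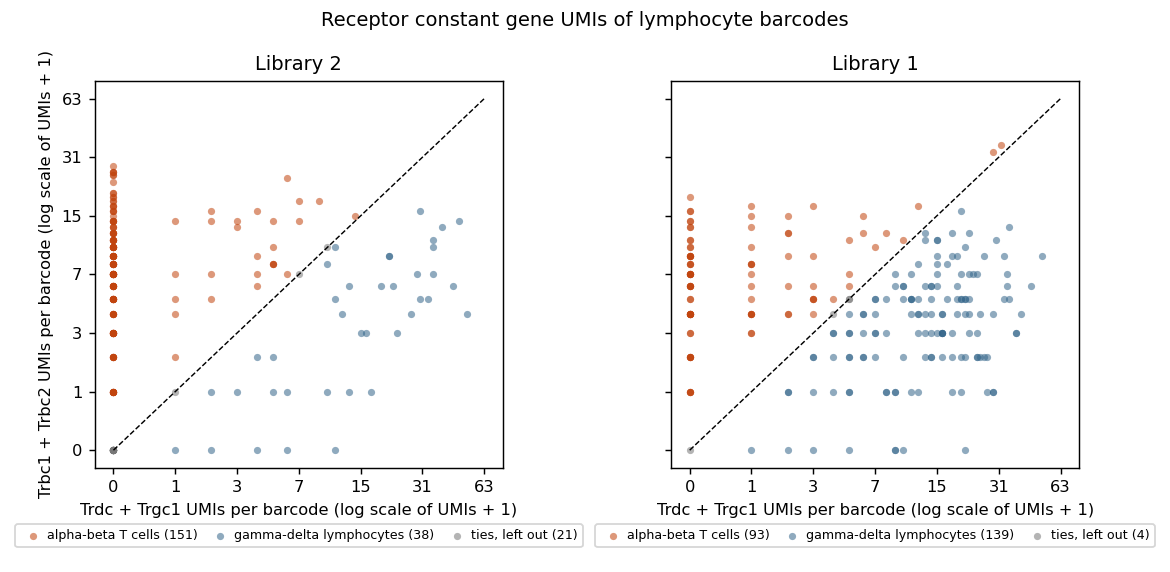
Each point is a lymphocyte barcode, with its Trbc1 and Trbc2 UMIs set against its Trdc and Trgc1 UMIs on log axes of UMIs + 1, library 2 in the left panel and library 1 in the right, and the dashed line marks equal counts. Most of the 151 members of library 2 lie at 0 delta and gamma chain UMIs, as do 51 of the 93 members of library 1.

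Trac, the constant region of the alpha chain (chromosome 14, 54220521 to 54224206, plus strand, mm10), was not part of the rule and checks the label. It had a UMI in 138 of 151 members of library 2 and 86 of 93 of library 1. Its level, in counts per 1000000 UMIs of the class (CPM), was 1408 and 1579.8 CPM in members of libraries 2 and 1, against 516 and 936 CPM in gamma-delta barcodes of libraries 2 and 1 and 8.84 and 6.11 CPM in epithelial barcodes of libraries 2 and 1. Trac was thus highest in members in each library, though far from absent in gamma-delta barcodes. The gamma chain constant region Trgc2 was at 1569.5 and 1469.9 CPM in members of libraries 2 and 1 and Trgc4 at 616 CPM in library 2 and 1152 CPM in library 1. Trgc1 and Trgc2 are near-identical copies, as are Trbc1 and Trbc2, so how the authors' counting split their reads is uncertain. This limit is not claimed for Trgc4, which was at 0 in members with Cd4 and no CD8 gene in both libraries. What the level of Trgc4 in members reflects was not tested. Variable segments of the beta and alpha chains were seen rarely. Trbv segments had 50 UMIs in 40 members of library 2 and 23 in 17 of library 1. Trav segments had 21 UMIs in members of library 2 and 15 in library 1, too few to describe a repertoire. Gamma segments were not rare: Trgv segments had a UMI in 83 of 151 members of library 2 and 61 of 93 of library 1. In gamma-delta barcodes they had one in 31 of 38 of library 2 and 110 of 139 of library 1. Most were Trgv2, with 251 UMIs in members of library 2 and 116 in those of library 1. Gamma-delta barcodes held 75 Trgv2 UMIs among 133769 in library 2 and 219 among 352485 in library 1. Members had 525642 UMIs in library 2 and 245597 in library 1. What the gamma segments in members reflect was not tested.

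Markers of other cell types summed to less in members than the epithelial list did. Each list still lay above its level in epithelial barcodes of libraries 2 and 1. There the B and plasma cell list was at 8.99 and 4.08 CPM and the myeloid list at 30.0 and 36.1 CPM. The natural killer and innate lymphoid list was at 54.0 and 45.2 CPM there, the mast cell list at 28.9 and 17.0 CPM and the stromal list at 27.4 and 15.1 CPM. The B and plasma cell list had a UMI for 7 of 11 genes in members of library 2 and 3 in library 1. It summed to 119.9 CPM in library 2 and 285 CPM in library 1, most of it Ighm. Cd79a, Cd79b, Pax5, Ighd, Igkc and Igha also had a UMI in library 2. Of its defining genes, Ms4a1, Jchain and Mzb1 were at 0 in members of both. The myeloid list had 5 of 15 genes with a UMI in library 2 and 5 in library 1 (217 CPM in library 2 and 257 CPM in library 1). Itgax, Fcgr3, Cd68 and Xcr1 had most of its UMIs, and Lyz2, Csf1r, Adgre1 and C1qa were at 0. The natural killer and innate lymphoid list had 8 of 10 in library 2 and 5 in library 1 (239.7 CPM in library 2 and 273 CPM in library 1). The mast cell list (93.2 CPM in library 2 and 171 CPM in library 1) was mostly Kit, a stem cell factor receptor, and Mcpt1, Mcpt2 and Cpa3 were at 0. The stromal list summed to 611 CPM in library 2 and 554 CPM in library 1, mostly the filament gene Vim, which lymphocytes also express, and Col3a1, Dcn and Cdh5 were at 0. The epithelial list had 21 of 22 genes with a UMI in library 2 and 21 in library 1, summing to 4771 and 3074 CPM in members of libraries 2 and 1 against 35780.4 and 32423 CPM in epithelial barcodes of libraries 2 and 1, and 55 members of library 2 and 32 of library 1 held 1 Epcam UMI. Whether free RNA of lysed cells or doublets placed these there was not tested.

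Gzma had the highest level of all genes in members, ribosomal and mitochondrial genes aside, and Ccl5 and Gzmb ranked with Tmsb4x and Actb, cytoskeletal genes of most cells, among the next. Gzma, a granule serine protease, was at 24462 CPM in library 2 and 25595 CPM in library 1, in 123 of 151 members of library 2 and 73 of 93 of library 1. Gzmb, the granzyme that cleaves caspases, was at 10441 CPM in library 2 and 8880.4 CPM in library 1, and Ccl5, a chemokine that draws T cells, at 12185 CPM in library 2 and 15876 CPM in library 1. Prf1, the pore-forming partner of the granzymes, was at only 68.5 CPM in library 2 and 61.1 CPM in library 1. The 20 listed cytotoxic genes summed to 52464 and 55489 CPM in members of libraries 2 and 1 and to 639 and 456 CPM in epithelial barcodes of libraries 2 and 1. A single UMI is a weak sign nonetheless: Gzma had one in 46.3% of epithelial barcodes of library 2 and 30.7% of library 1.

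Genes of gut residence were present at lower levels. Itgae, the integrin chain that binds epithelial E-cadherin, was at 1381 CPM in library 2 and 1417 CPM in library 1, and Rgs1, a brake on chemokine receptor signalling, at 2157 CPM in library 2 and 3921 CPM in library 1. Ccr9, the receptor that guides T cells to the small intestine, was at 417 CPM in library 2 and 603 CPM in library 1, and Itgb7, the partner of Itgae, at 439 CPM in library 2 and 493 CPM in library 1. Ccr7, the lymph node homing receptor of recirculating cells, had 8 UMIs in 3 of 244 members, all in library 2. Ccr7 had a count of 0 in library 1, where the floor of 3 UMIs used here corresponds to 12.2 CPM. The plot of levels shows the lymphocyte genes side by side in the classes.

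**Figure D2:**
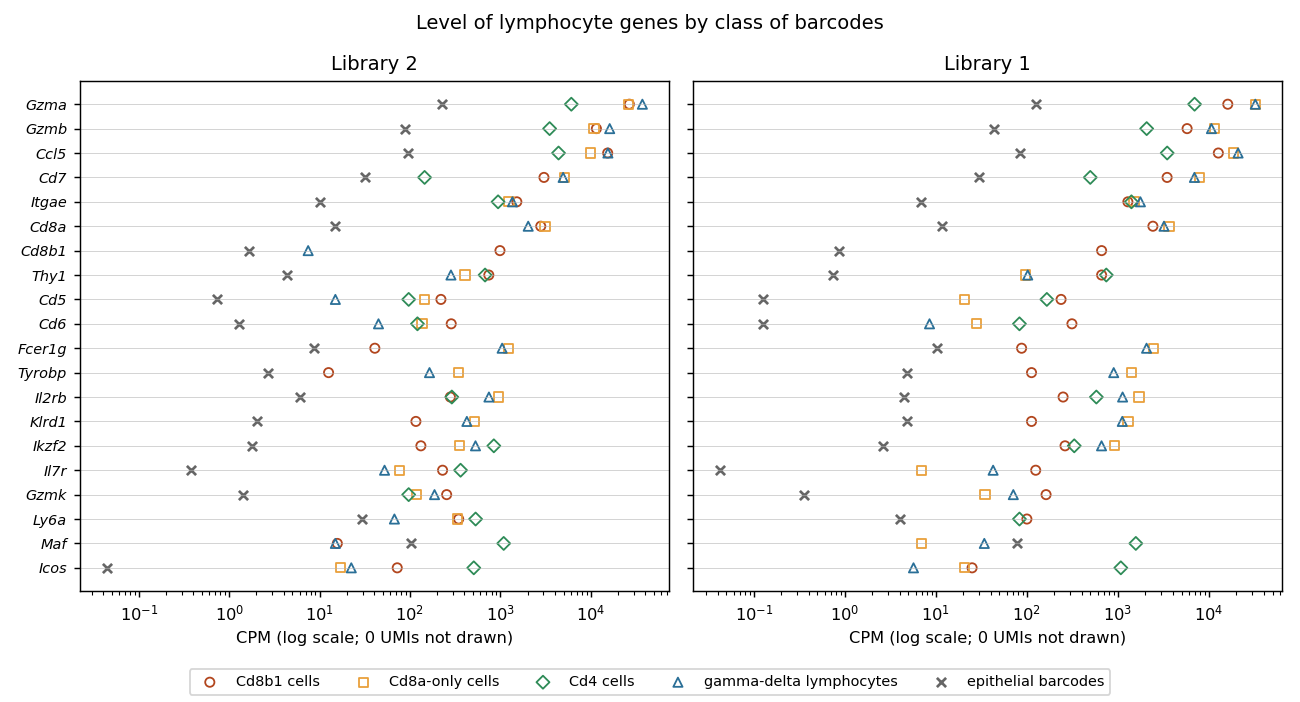
Levels of 20 lymphocyte genes in CPM on a log axis, 1 marker for each class (Cd8b1 cells, Cd8a-only cells and Cd4 cells among the members, then gamma-delta and epithelial barcodes), with library 2 in the left panel and library 1 in the right, and with genes at 0 UMIs not drawn. Gzma reaches 26721 CPM in Cd8b1 cells and 6097 CPM in Cd4 cells of library 2, and lies lower in epithelial barcodes.

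By coreceptor UMIs, members fell into Cd8b1 cells (a Cd8b1 UMI and none of Cd4), Cd8a-only cells (Cd8a and neither of the others), Cd4 cells (Cd4 and neither CD8 gene), those with Cd4 and a CD8 gene, and those with none of the 3 genes. Cd8b1 and Cd8a are neighbours (chromosome 6, 71322788 to 71337494, plus strand, and chromosome 6, 71373427 to 71379173, plus strand, mm10). The main classes changed places between the libraries. Cd8b1 cells were 88 of 151 members of library 2, or 58.3% (49.98 to 66.2), against 23 of 93 of library 1, or 24.7% (16.4 to 34.8). Cd8a-only cells were 36 members of library 2, or 23.8% (17.3 to 31.4), against 60 of library 1, or 64.5% (53.9 to 74.2). Neither pair of intervals overlapped, but they cover counting error within 1 pool each and not the spread between animals or captures. Cd4 cells were 8.61% (4.66 to 14.3) in library 2 (13 cells) and 6.45% (2.40 to 13.5) in library 1 (6 cells), with overlapping intervals. Members with Cd4 and a CD8 gene numbered 2 in library 2 and 2 in library 1, and members with none of the genes 12 in library 2 and 2 in library 1.

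Depth bears on such calls, since a shallow cell can miss its Cd8b1 transcripts, and the classes' median depth differed (3222 UMIs in Cd8b1 and 2599 in Cd8a-only cells of library 2, 2353 and 2349.5 in those of library 1). With each member thinned to 1000 UMIs, Cd8b1 cells were 40.1% (32.1 to 48.5) in library 2 and 17.6% (10.4 to 27.0) in library 1, and Cd8a-only cells 41.5% (33.4 to 49.9) in library 2 and 71.4% (61.0 to 80.4) in library 1. 4 members of library 2 and 2 of library 1 had fewer UMIs and were left out. The order of the libraries was the same at equal depth, while fewer cells counted as Cd8b1 cells and the classes of library 2 were then about equal. Members without any Trdc or Trgc1 UMI had Cd8b1 in 64% in library 2 and 29.4% in library 1, though such members could still hold transcripts of other gamma chain genes such as Trgc2. Background was low: Cd8b1 had a UMI in 1.16% of epithelial barcodes of library 2 and 0.548% of library 1, at median depths of 13036 UMIs in library 2 and 12508 in library 1.

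**Figure D3:**
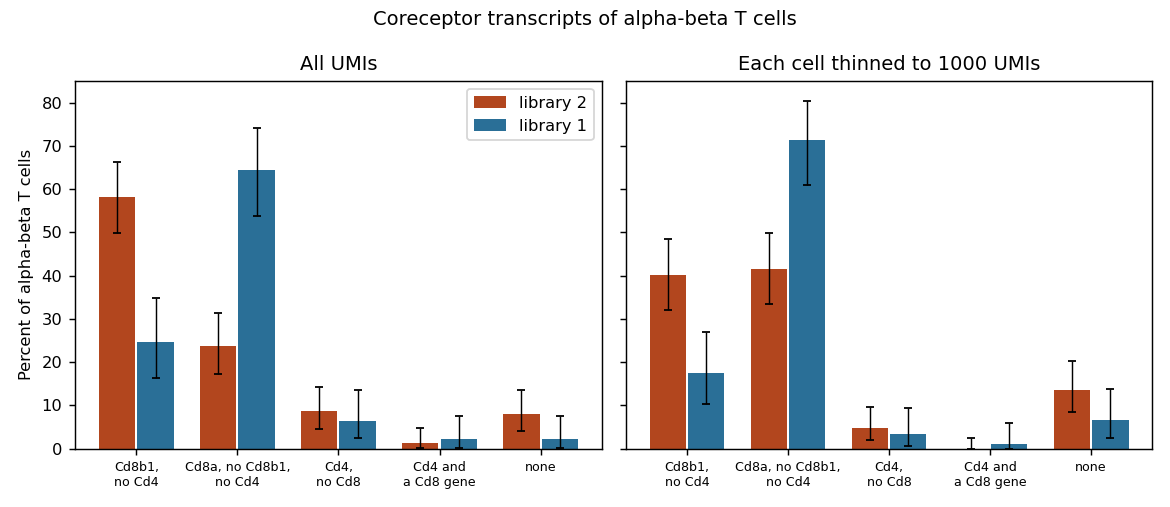
Percent of members in each coreceptor class, with library 2 as the left bar and library 1 as the right bar of each pair, Clopper-Pearson 95% intervals as whiskers, all UMIs in the left panel and members thinned to 1000 UMIs in the right. Cd8b1 cells are the larger class in library 2 with all UMIs (58.3%) and Cd8a-only cells in library 1 (64.5%), and after thinning the Cd8b1 share is still higher in library 2 than in library 1.

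Few genes were called apart between Cd8b1 and Cd8a-only cells, by a criterion that itself required the same direction in both libraries. Library 1 gave 23 Cd8b1 cells with 80017 UMIs, which limits how many genes could be called. A gene counted as measured with at least 50 UMIs over the classes compared, and as apart where both libraries gave a ratio of 2-fold or more in the same direction, each interval excluding 1. Receptor chain genes, mitochondrial genes and the genes that chose members or classes were left out. Of 2817 measured genes, 11 were apart and higher in Cd8b1 cells (0.39%) and 15 were apart and lower (0.532%). This contrast was chosen after the data were seen. The deepest member, a Cd8b1 cell of library 1, gave 24.7% of the UMIs of that library's Cd8b1 cells. It held 33 beta chain UMIs and 29 of Trdc and Trgc1, and the contrast was not repeated without it.

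Adaptors of natural killer receptors were the farthest apart. Fcer1g, an activating signal adaptor of Fc and natural killer receptors (chromosome 1, 171229572 to 171234365, minus strand), was at 40.9 and 87.5 CPM in Cd8b1 cells of libraries 2 and 1, against 1219.7 and 2474 CPM in Cd8a-only cells of libraries 2 and 1, a ratio of 0.0335 (0.0174 to 0.0591) in library 2 and 0.0354 (0.0141 to 0.0736) in library 1. A Fcer1g UMI was found in 3 of 88 Cd8b1 cells of library 2 and 3 of 23 of library 1, against 16 of 36 Cd8a-only cells of library 2 and 54 of 60 of library 1. Tyrobp, a second such adaptor (chromosome 7, 30413760 to 30417585, plus strand), was at 12.6 and 112 CPM in Cd8b1 cells of libraries 2 and 1 and 347 and 1421 CPM in Cd8a-only cells of libraries 2 and 1. Klrd1, the CD94 chain of natural killer receptors, was at 116 and 112 CPM in Cd8b1 cells of libraries 2 and 1 and 517 and 1289 CPM in Cd8a-only cells of libraries 2 and 1. Il2rb, the receptor chain for interleukins 2 and 15, was at 279.8 and 249.9 CPM in Cd8b1 cells of libraries 2 and 1 and 949 and 1705 CPM in Cd8a-only cells of libraries 2 and 1. All of these were lower in Cd8b1 cells in each library. Of the list of unconventional intraepithelial lymphocyte genes, 3 of 8 measured genes were apart and lower (Fcer1g, Il2rb and Tyrobp) and 0 higher, with a median log2 ratio of -0.73 in library 2 and -1.62 in library 1, against 0.01 and 0.05 over all measured genes.

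Single genes of signalling (Txk and Ptpn6) and of survival (Bcl2) were also among those lower in Cd8b1 cells, which does not describe those lists as a whole. Txk, a Tec family kinase, had a ratio of 0.254 (0.115 to 0.542) in library 2 and 0.0902 (0.0106 to 0.348) in library 1, and Ptpn6, the inhibitory phosphatase SHP-1, of 0.416 (0.279 to 0.621) in library 2 and 0.216 (0.0953 to 0.433) in library 1. Ikzf2, the transcription factor Helios, was at 132 and 262 CPM in Cd8b1 cells of libraries 2 and 1 and 356 and 915 CPM in Cd8a-only cells of libraries 2 and 1. Bcl2, which blocks apoptosis, was at 138 and 150.0 CPM in Cd8b1 cells of libraries 2 and 1 and 313 and 589 CPM in Cd8a-only cells of libraries 2 and 1. The prothrombinase-like gene Fgl2 was at 255 and 262 CPM in Cd8b1 cells of libraries 2 and 1 and 762 and 1268 CPM in Cd8a-only cells of libraries 2 and 1. Each of these lay at least 2-fold lower in Cd8b1 cells in both libraries. The others lower in Cd8b1 cells were Ighm, the lectin-like receptor Klrh1, Cd200r2, the chemokine gene Ccl3, Mfsd10 and Sipa1l1. Cd200r2, Klrh1 and Ccl3 had 0 UMIs in Cd8b1 cells of library 1, so their ratios there are bounds against 3 UMIs.

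Higher in Cd8b1 cells were genes of T cell receptor signalling and of conventional T cells. Themis, which sets receptor signal strength in developing T cells, was at 220.1 and 150.0 CPM in Cd8b1 cells of libraries 2 and 1, against 33.9 and 41.6 CPM in Cd8a-only cells of libraries 2 and 1, a ratio of 6.50 (2.43 to 24.5) in library 2 and 3.61 (1.25 to 11.7) in library 1. Lat, the scaffold that Zap70 phosphorylates, was at 619 and 412 CPM in Cd8b1 cells of libraries 2 and 1 and 296 and 159 CPM in Cd8a-only cells of libraries 2 and 1. The co-receptor Cd6 was at 286 and 312 CPM in Cd8b1 cells of libraries 2 and 1 and 136 and 27.7 CPM in Cd8a-only cells of libraries 2 and 1. Of the proximal signalling list, 3 of 15 measured genes were higher (Cd6, Lat and Themis) and 1 lower (Txk). Il7r, the interleukin-7 receptor chain, was at 229 and 125 CPM in Cd8b1 cells of libraries 2 and 1 and 76.2 and 6.93 CPM in Cd8a-only cells of libraries 2 and 1. Gzmk, a granzyme of memory CD8 cells, was at 255 and 162 CPM in Cd8b1 cells of libraries 2 and 1 and 119 and 34.6 CPM in Cd8a-only cells of libraries 2 and 1. The rest were Sh3kbp1, a signalling adaptor, Inpp4b, a lipid phosphatase, Rgs10, Spsb1, Paics, an enzyme of purine synthesis, and the predicted gene Gm8369. Of the cytotoxic list 1 of 15 was higher (Gzmk) and 1 lower (Ccl3), and neither Gzma nor Gzmb was apart.

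Cd8a-only cells and gamma-delta lymphocytes both held the adaptors. Fcer1g was at 1219.7 and 2474 CPM in Cd8a-only cells of libraries 2 and 1, against 1047 and 2065 CPM in gamma-delta barcodes of libraries 2 and 1, and Tyrobp at 347 and 1421 CPM in Cd8a-only cells of libraries 2 and 1, against 164 and 899 CPM in gamma-delta barcodes of libraries 2 and 1. Il2rb was at 949 and 1705 CPM in Cd8a-only cells of libraries 2 and 1 and 748 and 1126 CPM in gamma-delta barcodes of libraries 2 and 1. Trac, though, was at 1702 and 1802 CPM in Cd8a-only cells of libraries 2 and 1 and 1364 and 1149.8 CPM in Cd8b1 cells of libraries 2 and 1, against 516 and 936 CPM in gamma-delta barcodes of libraries 2 and 1. How far some Cd8a-only members are gamma-delta cells with few Trdc and Trgc1 transcripts was not tested.

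Few genes were called apart between members and gamma-delta lymphocytes in both libraries. Library 2 gave 38 gamma-delta barcodes with 133769 UMIs, which limits how many genes could be called. The rule split lymphocytes by this contrast, so what follows is a description. Of 4835 measured genes, 18 were apart and higher in members (0.372%) and 3 apart and lower (0.062%), by the same 2-fold criterion in both libraries. With every cell thinned to 1000 UMIs, 4 were higher and 2 lower. The farthest was Cd8b1, which chose no member, at 611 and 216 CPM in members of libraries 2 and 1 and 7.48 and 0 CPM in gamma-delta barcodes of libraries 2 and 1, where 1 of 38 cells of library 2 and 0 of 139 of library 1 had a UMI. Cd5, an inhibitor of receptor signalling, was at 177 and 97.7 CPM in members of libraries 2 and 1 and 14.95 and 0 CPM in gamma-delta barcodes of libraries 2 and 1, a ratio of 11.8 (3.19 to 99.2) in library 2 and at least 11.5 in library 1. Cd6, its relative, was at 215 and 122 CPM in members of libraries 2 and 1 and 44.9 and 8.51 CPM in gamma-delta barcodes of libraries 2 and 1. In library 1, 25 of the members' 30 Cd6 UMIs lay in the 23 Cd8b1 cells and 4 in the 60 Cd8a-only cells. The higher Cd6 level there is thus mostly that of the Cd8b1 cells. Thy1, a surface glycoprotein of mouse T cells, was at 669.7 and 326 CPM in members of libraries 2 and 1 and 284 and 102 CPM in gamma-delta barcodes of libraries 2 and 1. Of the proximal signalling list these 3 of 16 measured genes were higher and 0 lower.

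Helper and adhesion genes were the next group. Icos, a costimulatory receptor, was at 95.1 and 73.3 CPM in members of libraries 2 and 1 and 22.4 and 5.67 CPM in gamma-delta barcodes of libraries 2 and 1. The transcription factor Maf was at 108 and 85.5 CPM in members of libraries 2 and 1 and 14.95 and 34.0 CPM in gamma-delta barcodes of libraries 2 and 1, and Rora, a nuclear receptor, at 154 and 134 CPM in members of libraries 2 and 1 and 52.3 and 51.1 CPM in gamma-delta barcodes of libraries 2 and 1. These were 3 of 6 measured genes of the helper list. The 19 Cd4 cells among the 244 members gave 64 of the members' 78 Maf UMIs and 34 of their 68 Icos UMIs. Cd8b1 cells held 5 Maf UMIs in 4 of 111 cells, and Cd8a-only cells 1 Maf UMI in 96 cells. The higher Maf level is thus mostly that of the Cd4 cells and does not describe the CD8 members. Itgal, the alpha chain of the integrin LFA-1, was at 226 and 114 CPM in members of libraries 2 and 1 and 37.4 and 19.9 CPM in gamma-delta barcodes of libraries 2 and 1. Cd226, an activating receptor, was at 403 and 199.5 CPM in members of libraries 2 and 1 and 187 and 93.6 CPM in gamma-delta barcodes of libraries 2 and 1. Ly6a and Ms4a4b, surface proteins of T cells, were also higher, with Ms4a4b at 736 and 143 CPM in members of libraries 2 and 1 and 127 and 31.2 CPM in gamma-delta barcodes of libraries 2 and 1. In library 1, however, Ly6a had no UMI in Cd8a-only cells. Gm8369, also higher in members, had 5 of its 6 UMIs in members of library 1 in Cd8b1 cells and none in Cd8a-only cells. Mras, Apol9a, Tpm4 and Klre1 were among the others higher in members. Of these, Tpm4, a tropomyosin, had a ratio in library 1 of 2.24 (1.15 to 4.50), which turned to 0.551 (0.103 to 1.93) when members held no Trdc or Trgc1 UMI and to 1.37 (0.617 to 2.99) without the deepest member of library 1.

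The 3 lower genes were Tspan9, a tetraspanin, at 28.5 and 28.5 CPM in members of libraries 2 and 1 and 164 and 142 CPM in gamma-delta barcodes of libraries 2 and 1, Pde4a, which breaks down cyclic AMP, and the histone deacetylase Hdac3. Pde4a had a ratio of 0.347 (0.149 to 0.835) in library 2 and 0.211 (0.0644 to 0.542) in library 1, and Hdac3 of 0.392 (0.185 to 0.856) in library 2 and 0.425 (0.167 to 0.962) in library 1. None of the 16 measured cytotoxic genes was apart, and their median log2 ratio was -0.05 in library 2 and -0.23 in library 1, against 0.06 and 0.02 over all measured genes. Gzma was at 24462 and 25595 CPM in members of libraries 2 and 1 and 37258 and 32356 CPM in gamma-delta barcodes of libraries 2 and 1. Genes missed the criterion also where the libraries went opposite ways: 0 of 16 measured cell cycle genes were apart, yet in library 2 13 of them had a ratio below 1 (median log2 ratio -0.37) and in library 1 all 16 had one above 1 (0.82). The plot of class ratios shows both sets with their intervals.

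**Figure D4:**
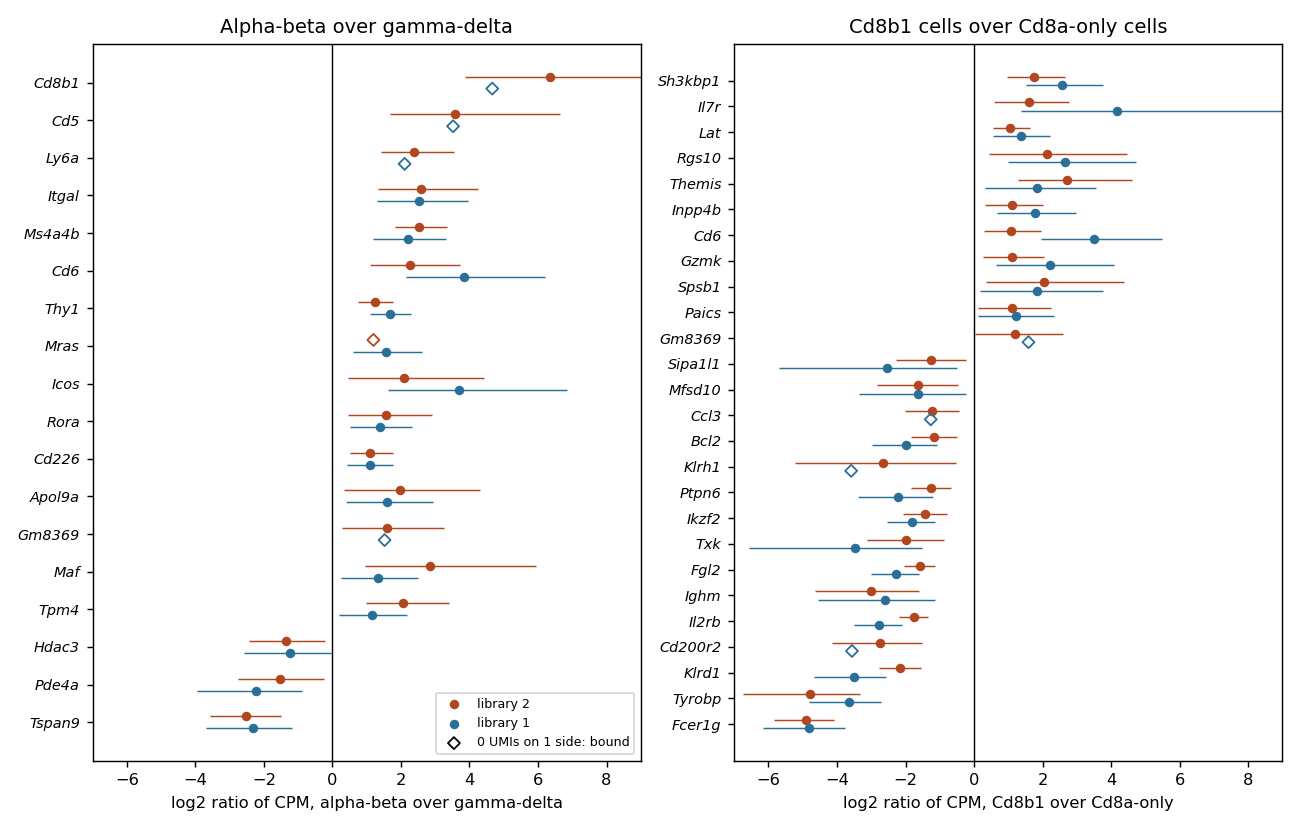
Log2 ratios of CPM with 95% intervals, for 18 genes named in members over gamma-delta barcodes on the left and 26 genes in Cd8b1 over Cd8a-only cells on the right, with library 2 and library 1 as separate markers and open diamonds as bounds where a class had 0 UMIs. The libraries fall on the same side for each gene drawn, as the criterion requires, and Fcer1g and Tyrobp lie farthest below 0 in the right panel.

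The 19 Cd4 members were set against the 111 Cd8b1 members with UMIs summed over the libraries, since each library held fewer than 20 Cd4 cells. Apart meant a ratio of at least 2-fold with its interval excluding 1. Of 1917 measured genes, 64 were apart and higher in Cd4 cells (3.34%) and 77 lower (4.02%), or 36 and 43 when members held no Epcam UMI. Helper genes were higher as a group: all 5 measured of the 20 listed (Ctla4, Icos, Ikzf2, Maf and Rora) were apart, with a median log2 ratio of 2.21 against -0.00122 over all measured genes. Maf (chromosome 8, 115682942 to 115707794, minus strand) had 64 UMIs in 15 of 19 Cd4 cells, against 5 UMIs in the Cd8b1 cells, a ratio of 95.4 (38.8 to 304). Icos was at 637 CPM in Cd4 cells and 62.8 CPM in Cd8b1 cells. Tcf7, a transcription factor of naive and memory T cells, was at 712 CPM in Cd4 cells and 138 CPM in Cd8b1 cells. Nr3c1, the glucocorticoid receptor, was at 449 CPM in Cd4 cells and 113 CPM in Cd8b1 cells, a ratio of 3.98 (2.32 to 6.67). Foxp3, the regulatory T cell factor, had 2 UMIs in 1 Cd4 cell.

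Killing genes were lower in Cd4 cells: 6 of 11 measured cytotoxic genes were apart and lower (Ccl4, Ccl5, Gzma, Gzmb, Gzmk and Nkg7) and 0 higher, with a median log2 ratio of -1.34. Gzma was still at 6292 CPM in Cd4 cells, against 24591 CPM in Cd8b1 cells, and Gzmb at 3183 CPM in Cd4 cells, against 10386 CPM in Cd8b1 cells. Both remained above their levels in epithelial barcodes, where Gzma was at 229 CPM in library 2 and 127 CPM in library 1 and Gzmb at 88.04 CPM in library 2 and 43.5 CPM in library 1. Cd7, an immunoglobulin family receptor of intraepithelial lymphocytes, was at 225 CPM in Cd4 cells and 3125 CPM in Cd8b1 cells. Car2, a carbonic anhydrase, was at 18.7 CPM in Cd4 cells and 625 CPM in Cd8b1 cells. Library 2 gave 13 of 19 Cd4 cells and 88 of 111 Cd8b1 cells.

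Members of library 2 had less of the natural killer adaptors and more of the interferon-induced genes than members of library 1. A gene was apart here at a ratio of at least 1.5-fold with its interval excluding 1. Of 3270 measured genes, 186 were higher in library 2 (5.69%) and 169 lower (5.17%), or 68 and 49 with members thinned to 1000 UMIs. The median log2 ratio of all measured genes was 0.01. The lower genes were led by those that separated the coreceptor classes. Fcer1g was at 398 and 1551 CPM in all members of libraries 2 and 1, a ratio of 0.256 (0.215 to 0.304), and Tyrobp at 150.3 CPM in library 2 and 924 CPM in library 1, a ratio of 0.163 (0.124 to 0.211). Klrd1 was at 228 CPM in library 2 and 835 CPM in library 1 and Klrh1 at 19.0 CPM in library 2 and 265 CPM in library 1. Ikzf2 was at 242 CPM in library 2 and 651 CPM in library 1. The other lower genes named by rank were Cd200r2, Itih5, Vps37b, P2ry10 and Spry2.

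Of the unconventional intraepithelial lymphocyte list, 5 of 8 measured genes were apart and lower in library 2 (Cd7, Fcer1g, Il2rb, Kit and Tyrobp) and 0 higher, with a median log2 ratio of -0.89. The makeup of the members moves with this, since Cd8a-only cells were the smaller class in library 2. Within classes the counts were smaller: among Cd8a-only cells 4 of 7 measured genes were lower in library 2, where 9.46% of all genes measured in these cells were lower and 9.04% higher. Among Cd8b1 cells 0 of 4 were lower and 1, Gzmb, was higher, where 7.48% of all measured genes were lower and 5.91% higher. Fcer1g within Cd8a-only cells was at 1219.7 CPM in library 2 and 2474 CPM in library 1, a ratio of 0.493 (0.403 to 0.600), and Tyrobp at 347 CPM in library 2 and 1421 CPM in library 1, a ratio of 0.244 (0.170 to 0.343). In gamma-delta barcodes Fcer1g was at 1047 CPM in library 2 and 2065 CPM in library 1 and Tyrobp at 164 CPM in library 2 and 899 CPM in library 1, also lower in library 2, at ratios of 0.507 (0.420 to 0.608) and 0.183 (0.113 to 0.282). The Cd8a-only class itself was not alike in the libraries, since 16 of 36 of its cells in library 2 held a Fcer1g UMI, against 54 of 60 in library 1, and the part of makeup within it was not tested.

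The signalling list went mostly the other way, with 4 of 16 measured genes apart and higher in library 2 (Cd5, Cd6, Lat and Thy1) and 1 lower (Txk), at a median log2 ratio of 0.30. Of all genes measured in members 5.69% were higher and 5.17% lower. Thy1 was at 669.7 CPM in library 2 and 326 CPM in library 1 and Lat at 516 CPM in library 2 and 261 CPM in library 1. Lck, the first kinase of the cascade, was at 1031 CPM in library 2 and 949 CPM in library 1, a ratio of 1.09 (0.930 to 1.27). Of 15 measured residence genes, 3 were higher, Cd69 and Itga4 among them, and 4 lower (Cd96, Itga1, Rgs1 and Rgs2). Cd69, which holds T cells in tissue, was at 314 CPM in library 2 and 183 CPM in library 1, while Rgs1 was at 2157 CPM in library 2 and 3921 CPM in library 1 and Itga1, a collagen-binding integrin chain, at 386 CPM in library 2 and 635 CPM in library 1. Itgae had a ratio of 0.975 (0.857 to 1.11). Il7r was at 202 CPM in library 2 and 52.9 CPM in library 1, a ratio of 3.81 (2.13 to 7.39), with 27 positive members in library 2 and 7 in library 1. Several of these are genes that also set Cd8b1 from Cd8a-only cells apart.

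Over all members the main effectors differed by less than 1.5-fold between the libraries, while the list of cytotoxic genes had unlike medians within the coreceptor classes. Gzma had a ratio of 0.956 (0.927 to 0.985), Gzmb of 1.18 (1.12 to 1.24), Ccl5 of 0.768 (0.737 to 0.799) and Nkg7, a granule membrane protein, of 0.974 (0.865 to 1.10). Of 16 measured cytotoxic genes 4 were apart and higher (Ccl3, Ccl4, Gzmk and Serpinb6b) and 1 lower (Xcl1, a chemokine for cross-presenting dendritic cells), against 5.69% and 5.17% of all measured genes. Ccl4, a chemokine made on activation, was at 219 CPM in library 2 and 102 CPM in library 1, and Xcl1 at 93.2 CPM in library 2 and 204 CPM in library 1. Within Cd8b1 cells 4 of 11 were higher in library 2 (Ccl4, Gzma, Gzmb and Nkg7) and 0 lower, against 5.91% and 7.48% of all measured genes, with a median log2 ratio of 0.65. Without the deepest member, a Cd8b1 cell of library 1 that gave 24.7% of that class's UMIs there, 2 of these were higher (Ccl4 and Gzmb), and over all members 2 of 16 were higher (Ccl4 and Gzmk) and 2 lower (Cst7 and Xcl1). Within Cd8a-only cells 0 of 9 were higher and 3 lower (Ccl5, Cst7 and Ctsw), against 9.04% and 9.46% of all measured genes, at a median of -0.31. In gamma-delta barcodes 2 of 13 were higher (Gzmb and Gzmk) and 2 lower (Ccl3 and Fasl), where 6.52% of all measured genes were higher and 8.36% lower. The difference between the classes was not tested.

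The genes ranked highest in library 2 were Ifit1bl1, Ly6a, Ifit1, Ms4a4b, Ifi27l2a, Slfn1, Phf11b, Capg, Plac8 and Lgals1. Ifit1bl1, a relative of Ifit1, had 79 UMIs in library 2 and 1 in library 1 with a CPM ratio of 36.9 (6.44 to 1476). Ly6a, the surface protein Sca-1 that interferons induce (chromosome 15, 74994877 to 74998031, minus strand), was at 352 CPM in library 2 and 36.6 CPM in library 1, with a UMI in 51 of 151 members of library 2 and 4 of 93 of library 1. Within Cd8a-only cells Ly6a was at 339 CPM in library 2 and 0 CPM in library 1, and within Cd8b1 cells at 346 CPM in library 2 and 99.98 CPM in library 1. Ms4a4b was at 736 and 143 CPM in all members of libraries 2 and 1, a ratio of 5.17 (3.65 to 7.53). Plac8 was at 620.2 CPM in library 2 and 195 CPM in library 1 and Lgals1, a secreted lectin, at 251 CPM in library 2 and 65.1 CPM in library 1.

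Genes induced by interferon, the cytokine alarm of viral infection and inflammation, were the list most often apart among those with more than 3 measured genes. Of 33 listed genes, 22 were measured in members, and 16 of these were apart and higher in library 2 and 0 lower, against 5.69% and 5.17% of all measured genes. Their median log2 ratio was 1.13. Ifit1, which binds viral RNA (chromosome 19, 34640871 to 34650009, plus strand), was at 179 CPM in library 2 and 12.2 CPM in library 1, from 29 of 151 members of library 2 and 3 of 93 of library 1, a ratio of 14.6 (4.86 to 72.3). Isg15, a ubiquitin-like modifier, was at 108 CPM in library 2 and 28.5 CPM in library 1, and Gbp2, a guanylate-binding protein, at 148 CPM in library 2 and 69.2 CPM in library 1. Slfn1, a schlafen gene, was at 285 CPM in library 2 and 44.8 CPM in library 1 and Ifi27l2a at 565 CPM in library 2 and 106 CPM in library 1. Others apart were Gbp7, Ifi209, Ifi213, Ifi47, Igtp, Isg20, Rtp4, Trim30a, Xaf1 and Zbp1. Slfn2, Ly6e, Ifi203, Stat2, Irf7 and Irf1 were not, with Irf7, the amplifier of the response, at a ratio of 1.09 (0.614 to 2.01) and Irf1 at 0.989 (0.738 to 1.34). The Ifit, Gbp, Slfn and Ifi200 genes are families of similar copies, so values of single members are uncertain where reads could be split.

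The same list was also higher in library 2 outside the members. In epithelial barcodes 30 of 31 measured genes were apart and higher, where 6.58% of all measured genes were higher and 1.89% lower, with a median log2 ratio of 1.88, and the list summed to 1764 CPM in library 2 and 759 CPM in library 1 there, against 7052 and 3815 CPM in members of libraries 2 and 1. Within Cd8b1 cells 10 of 16 were higher (median log2 ratio 0.94), against 5.91% of all measured genes, and 5 of 16 without the deepest member. Within Cd8a-only cells 3 of 8 were higher, against 9.04% of all measured genes, and 1, Irf1, was lower (median log2 ratio 0.42). In gamma-delta barcodes 2 of 10 were higher, against 6.52% of all measured genes (median log2 ratio 0.16). The classes differ in cells and so in how many genes could be measured, and the differences between classes were not tested. Ifit1 in epithelial barcodes was at 29.6 CPM in library 2 and 2.37 CPM in library 1, in each library lower than in members of that library.

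**Figure D5:**
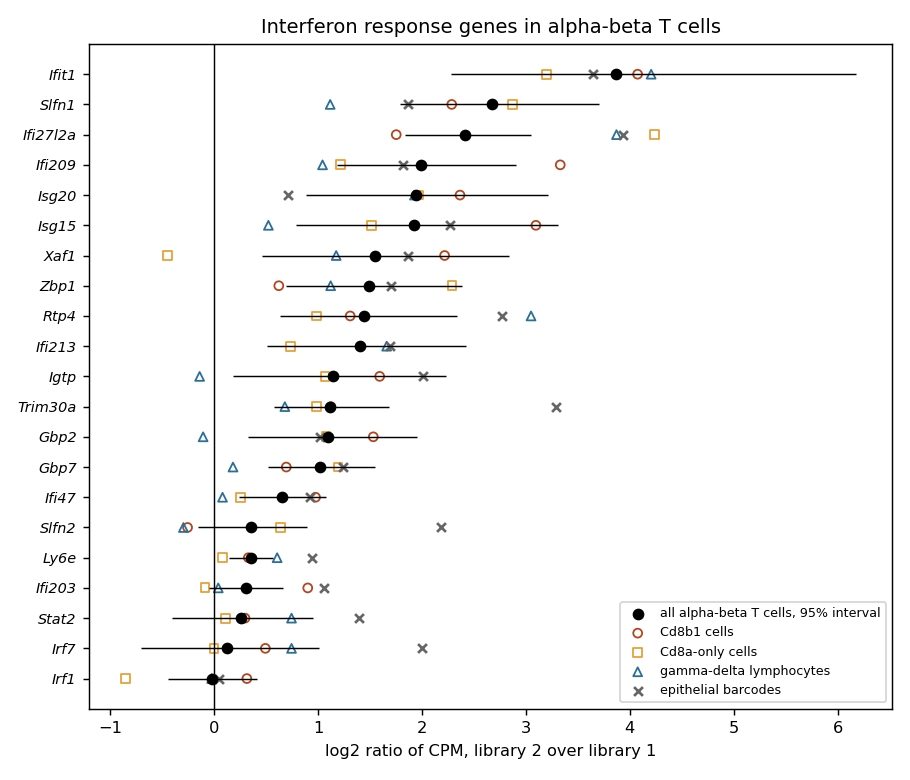
Log2 ratio of CPM in library 2 over library 1 for the measured interferon genes named in the text, with black points and 95% intervals for all members and coloured markers for Cd8b1, Cd8a-only, gamma-delta and epithelial barcodes, bounds not drawn. Nearly all member points lie above 0, from 0.99-fold for Irf1 to 14.6-fold for Ifit1, and most epithelial markers lie above 0 too.

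Interferon-activated factors are known to bind DNA elements with the core GAAANNGAA, and promoters with that core are given for Ifit1, the gene of the list farthest apart, Isg15, a classical response gene, and Gbp2, a gene of the interferon-gamma response. Each is the 250 bases before the RefSeq start in GRCm38.p6, written 5′ to 3′ on the gene's strand, at chr19:34640639-34640888, plus strand (Ifit1), chr4:156200819-156201068, minus strand (Isg15) and chr3:142620413-142620662, plus strand (Gbp2). Capitals mark matches to GAAANNGAA on either strand, overlapping ones run together.
Ifit1: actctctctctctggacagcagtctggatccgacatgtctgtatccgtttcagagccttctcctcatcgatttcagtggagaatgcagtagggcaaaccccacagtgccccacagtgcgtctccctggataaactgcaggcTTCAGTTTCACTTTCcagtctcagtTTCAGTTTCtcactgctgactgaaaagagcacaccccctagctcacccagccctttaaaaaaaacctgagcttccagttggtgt
Isg15: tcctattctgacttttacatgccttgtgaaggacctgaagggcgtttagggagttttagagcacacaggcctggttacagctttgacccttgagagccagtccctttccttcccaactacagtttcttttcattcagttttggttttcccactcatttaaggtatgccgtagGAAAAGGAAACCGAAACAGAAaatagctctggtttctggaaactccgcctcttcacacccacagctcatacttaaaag
Gbp2: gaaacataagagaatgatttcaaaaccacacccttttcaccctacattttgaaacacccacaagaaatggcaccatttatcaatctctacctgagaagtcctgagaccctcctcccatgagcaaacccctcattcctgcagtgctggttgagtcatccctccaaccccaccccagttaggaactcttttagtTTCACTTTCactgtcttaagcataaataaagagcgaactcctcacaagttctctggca

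Ifit1 held 3 matches, the farthest 109 bases before its start, Isg15 held 3, from 78 bases before, and Gbp2 held 1, at 58 bases. In windows of 300 bases, which take in 50 bases after the start, GAAANNGAA was found on either strand in 7 of 12 genes with a promoter (58.3%) among the interferon genes apart in members, and in 9 of 17 genes with a promoter (52.9%) among those measured. Over all RefSeq promoters the share was 2638 of 27025 genes with a promoter (9.76%), and over the genes measured in members 256 of 2637 genes with a promoter (9.71%). A match describes the letters in the window, not a bound site.

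Cell cycle genes, too, went different ways in the classes. Over all members 0 of 13 measured genes of the list were apart between the libraries, with a median log2 ratio of 0.05, but without the deepest member 3 of 12 were higher in library 2 (Mcm5, Mki67 and Rrm2; median 0.36). Within Cd8b1 cells 9 of 10 were lower in library 2 and 0 higher (median -0.96), Mki67, the proliferation marker, and Top2a, a topoisomerase of dividing cells, among them. With that cell left out of them 4 of 10 were lower (Hmgb2, Mki67, Stmn1 and Top2a), at a median of -0.61. By cells, Mki67 had a UMI in 23 of 88 Cd8b1 cells of library 2 and 8 of 23 of library 1. Within Cd8a-only cells 2 of 4 were higher (Hmgb2 and Mki67), and in gamma-delta barcodes 8 of 9 were, at medians of 0.68 in Cd8a-only cells and 1.497 in gamma-delta barcodes. Of all measured genes 7.48% were lower in library 2 in Cd8b1 cells. In Cd8a-only cells 9.04% of all measured genes were higher, and in gamma-delta barcodes 6.52%. In epithelial barcodes 0 of 17 cell cycle genes were apart. The difference between the classes was not tested.

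The remaining lists had fewer genes apart between the libraries. Of all genes measured in members 5.69% were higher in library 2 and 5.17% lower, so 1 gene apart in a short list is no result about that list. Of 12 measured MHC class I and peptide loading genes, 1 was apart and higher in library 2, Nlrc5, the activator of class I genes, with a list median log2 ratio of 0.24. Of 17 measured immediate early genes, which are induced within minutes of receptor signals and of tissue handling, 3 were higher (Egr1, Nr4a1 and Zfp36) and 3 lower (Btg2, Fos and Nr4a2). Of 8 measured genes of glucocorticoid and adrenergic stress, 1 was higher, Errfi1, and the list median was -0.22. Nr3c1 had 82 UMIs in members of library 2 (156 CPM) and 49 in library 1 (199.5 CPM). Of 9 survival genes Casp8, the initiator caspase of death receptors, was higher and Bcl2 lower. Of 9 heat shock genes Dnajb1 was lower. Of the natural killer receptors Cd226 was higher and Klrd1 lower among 5 measured, of the helper list Ctla4 was higher and Ikzf2 lower among 6, and of the cytokine receptors Il7r was higher and Il2rb lower among 6. Each of 4 lists had 1 gene higher and 0 lower: Ikzf1 among 8 T cell transcription factors, Ctla4 among 5 checkpoint receptors, Nfkbid among 7 genes of NF-kB activation and Fabp2 among 11 of glycolysis and lipid use. MHC class II genes could not be compared, as none reached 50 UMIs. Epithelial markers moved with the library too: 6 of 11 measured (Agr2, Cldn7, Defa24, Lgals4, Muc2 and Tff3) were apart and higher in members of library 2, with a median log2 ratio of 0.70, and their part in the results above was not tested.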

How the data were processed

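Crypt cells of 2 pools were captured and sequenced, and the authors deposited 1 matrix of whole-number UMI counts per gene and barcode. Per the submitters' processing notes Cell Ranger 2.1.1 and the build mm10 were used, with no role stated, and the capture chemistry could not be settled from the sources used here. The count matrix held 31253 features, of which 31184 (99.8%) had an ID in GENCODE M21. Barcode suffixes 2 and 1 mark the libraries, and no label ties them to ES or NT. Library 2 had 6446 barcodes and 54877667 UMIs, library 1 had 6310 and 54316199. 40 barcode sequences occurred in both libraries, and 3 members carried one. Doublets were not removed.

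Barcodes were filtered as the report states, and UMIs of each class and library were summed and scaled to 1000000 UMIs (CPM). Ratios have exact conditional Poisson intervals and shares Clopper-Pearson intervals at 95%; a count of 0 was set to a floor of 3 UMIs per class and library, giving a bound. Genes named by rank were the 15 (members over gamma-delta, each direction), or the 10 (libraries; Cd4 over Cd8b1) whose interval lay farthest from 1, all genes apart for Cd8b1 over Cd8a-only cells, up to 4 of each list, and the 20 highest by CPM; genes with few UMIs and others named for their known role were chosen after their values were seen. The members and all 28 gene lists (403 symbols, 402 of them in the matrix) were chosen with earlier results of these data known. Scripts used python 3.11.15, numpy 2.4.6, scipy 1.17.1, pandas 2.3.3 and matplotlib 3.10.9, and the interval code was tested on simulated counts. Alternatives changed the member rule, the depth, the minimum, the fold and the classes. No p-value is given, since each group was 1 library. A few genes of the lists are not reported here by name, though the counts include them.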

Additional observations from a re-analysis of the deposited data

Results flagged for a closer look

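Casp8, Ccl3 and Defa24 had library 2 over library 1 ratios whose intervals lay on opposite sides of 1 in members and in gamma-delta lymphocytes. Casp8 was at 1.73 (1.15 to 2.68) in members and 0.551 (0.286 to 0.989) in gamma-delta barcodes, Ccl3 at 1.87 (1.05 to 3.54) in members and 0.502 (0.246 to 0.939) in gamma-delta barcodes, and the Paneth cell defensin Defa24 at 1.62 (1.43 to 1.84) in members and 0.574 (0.498 to 0.661) in gamma-delta barcodes. The difference between the classes was not tested.

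Hmgb2, Mki67 and Tpm4 went opposite ways between the coreceptor classes. In library 2 over library 1, Hmgb2, a chromatin protein of dividing cells, had a ratio of 0.445 (0.339 to 0.586) in Cd8b1 cells and 1.80 (1.16 to 2.83) in Cd8a-only cells, the proliferation marker Mki67 0.477 (0.344 to 0.668) in Cd8b1 cells and 3.49 (1.86 to 6.95) in Cd8a-only cells, and the tropomyosin Tpm4 0.518 (0.282 to 0.986) in Cd8b1 cells and 11.2 (4.49 to 36.3) in Cd8a-only cells. The deepest member, a Cd8b1 cell of library 1 with 19730 UMIs, 33 beta chain UMIs and 29 of Trdc and Trgc1, gave 24.7% of the UMIs of that library's Cd8b1 cells and 17 of their 58 Mki67 UMIs. Without it the ratios in Cd8b1 cells were 0.544 for Hmgb2 and 0.508 for Mki67, and Tpm4 had under 50 UMIs. By cells, Mki67 had a UMI in 23 of 88 Cd8b1 cells of library 2 and 8 of 23 of library 1. In Cd8a-only cells it had one in 11 of 36 of library 2 and 7 of 60 of library 1, and 1 cell held 13 of the 54 UMIs. The intervals count UMIs and do not cover the spread between cells. The difference between the classes was not tested.

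Among the 21 tied lymphocyte barcodes of library 2, which entered no comparison, 66.7% had a UMI of the antibody light chain Igkc and 42.9% one of the B cell receptor chain Cd79a. Members of library 2 had an Igkc UMI in 1 of 151 and a Cd79a UMI in 1 of 151.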

How the results depend on the processing

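No paired analysis was possible because each group was 1 library. The settings that take Trdc and Trgc1, 1 coreceptor class, or thinned coreceptor calls were chosen after seeing the data, as was leaving out the deepest member. Where a value moved, the cause was not tested unless fewer cells or genes entered.

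Members were 79.4% of lymphocyte barcodes of library 2 with Cd3 genes only in the rule, and 59.5% in library 2 and 21.6% in library 1 when members needed 0 Trdc and Trgc1 UMIs. Thinned coreceptor shares in library 2 were 40.1% (Cd8b1) and 41.5% (Cd8a-only). For members over gamma-delta barcodes, the counts of genes higher and lower were 4 higher when thinned to 1000 UMIs, 7 lower with a mean over cells, 11 and 0 at 100 UMIs or more, 30 and 9 at 1.5-fold, and 14 and 2 without the deepest member. For library 2 over library 1 they were 68 and 49 when thinned, 102 and 63 at 100 UMIs, 317 and 415 with no minimum, 92 and 56 at 2-fold, 203 and 176 without the deepest member, 98 higher within Cd8b1 cells, and 87 and 91 within Cd8a-only cells. For Cd4 over Cd8b1 cells they were 36 and 43 with no Epcam UMI, 9 and 29 at 100 UMIs, and 299 higher with no minimum. Tpm4 in library 1 turned to 0.551 in members without Trdc and Trgc1 UMIs over gamma-delta barcodes, and within Cd8b1 cells Klrd1 turned to 1.03 and Itih5 to 1.26 in library 2 over library 1.

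Of the values of single genes, 518 of 538 for members over gamma-delta barcodes moved within their interval, 19 moved farther and 1 turned, and 296 of 339 for library 2 over library 1 did, 41 moved farther and 2 turned. Few UMIs limit most genes: in library 1 members, 3 UMIs correspond to 12.2 CPM.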

Other observations

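Ighm, the constant region of the IgM heavy chain, had UMIs in members although B cell markers were at or near 0. It was at 78.0 and 199.5 CPM in members of libraries 2 and 1, against 112 and 244 CPM in gamma-delta barcodes of libraries 2 and 1 and 1.17 and 1.04 CPM in epithelial barcodes of libraries 2 and 1. Among members it was at 18.9 and 49.99 CPM in Cd8b1 cells of libraries 2 and 1 and 152 and 305 CPM in Cd8a-only cells of libraries 2 and 1. Igha, the IgA heavy chain that plasma cells of the gut make, had 9 UMIs in members of library 2 and 12 in library 1.

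A share of members carried transcripts of division. Mki67 had a UMI in 42 of 151 members of library 2 and 17 of 93 of library 1, at 438 CPM in library 2 and 301 CPM in library 1. Top2a, a topoisomerase of dividing cells, had one in 39 members of library 2 and 13 of library 1. In epithelial barcodes, most of them deeper, Mki67 was at 333 CPM in library 2 and 412 CPM in library 1. Zbtb16, the factor of natural killer T cells, had 2 UMIs in 244 members.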
